A study of Mus musculus with 5 samples.

Results

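The axon guidance ligands and receptors described here are the 67 of the 32285 genes in the files whose symbols belong to the semaphorin, plexin, ephrin, Eph receptor, Slit, Robo, netrin, Unc5 and Dcc families. They were chosen by symbol alone, with no measured value, and comprise 35 ligands (20 semaphorins, 8 ephrins, 3 Slits and 4 netrins) and 32 receptors (9 plexins, 14 Eph receptors, 4 Robos and 5 netrin receptors of the Unc5 and Dcc type). The study read RNA and open chromatin in the same nuclei of mouse hindlimb skeletal muscle. It compared the stages of wild-type muscle, and muscle that lacks the voltage-gated calcium channel subunit Cacna1s with its wild-type counterpart. Each group was 1 library. Cacna1s-/- mice (KO) on C57BL/6N, in which a cassette replaced the coding region, gave a library at E18.5 (E marks the embryonic day) from 26 pooled hindlimbs. Wild-type (WT) C57BL/6N mice gave libraries at E14.5, at E18.5, on postnatal day 5 (P5) and in the adult, from 56, 14, 8 and 4 pooled hindlimbs. The deletion is carried by every cell of the animal and not by muscle alone. Sorted PCM1+ and PCM1− nuclei were mixed in equal volumes, so the share of PCM1+ nuclei in a library depends on that mixing.

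These proteins were named for steering growing axons and also act in vessel growth, cell migration and tissue boundaries. Semaphorins signal through plexins, with neuropilins as co-receptors for the secreted class 3. Ephrins are held at the cell surface and bind Eph receptor tyrosine kinases on the neighboring cell. Slits are secreted and bind Robo receptors, and netrins attract through Dcc and repel through Unc5 receptors. In the limb, motor axons choose their path by such cues, some of them made by the mesenchyme and the muscle.

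Levels are given as CPM, the unique molecular identifiers (UMIs) of a gene per 1000000 UMIs of the nuclei of a class in a library. Intronic reads were counted and CPM is not scaled to gene length, so levels are compared between libraries and classes for the same gene, not between genes. Nuclei were placed in a class when they met exactly 1 of 4 rules: at least 1% of UMIs from Ttn, or at least 1 UMI of Pax7, of Pdgfra or of Pecam1. These classes stand for myonuclei, myogenic progenitors, mesenchymal cells and endothelial cells. Ranges in parentheses after a fold are exact 95% intervals, and all intervals cover counting error only. With 1 library per group there is no check by replicates and no test, and a difference may come from the library. A member counts as higher or lower when its CPM differed at least 2-fold among genes with at least 30 UMIs in both libraries together, and the share of all such genes past that fold is given beside each count.

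Between 3228 and 5106 nuclei per library passed the limits on depth, and class medians lay between 905 and 9409 UMIs per nucleus. Ttn nuclei numbered 707 in KO muscle and 1731, 1198, 1421 and 4191 in WT muscle at E14.5, E18.5 and P5 and in adults. In the same order, Pdgfra nuclei numbered 919 and 1249, 1340, 793 and 134, Pax7 nuclei 290 and 190, 141, 68 and 24, and Pecam1 nuclei 109 and 113, 128, 100 and 12. Adult Pax7 and Pecam1 nuclei were under 50, and no comparison was made with them. Of the fixed marker lists, all 12 muscle markers were present in Ttn nuclei and all 10 mesenchymal markers in Pdgfra nuclei of every library. Adult Pax7 nuclei lacked Myod1 and Dll1 and adult Pecam1 nuclei lacked Cdh5, while the other libraries of both classes held all 10 of their markers beside the gene of the rule. Markers of other classes were nevertheless present: the mesenchymal list summed to 909.9 CPM in KO Pecam1 nuclei against 2943 CPM in WT, and reached 4190.2 CPM in Pecam1 nuclei of P5. Pairs of libraries shared 17 to 47 cell barcodes. Cacna1s had 0.70 CPM (5 UMIs) in KO Ttn nuclei and 209.7 CPM (1808 UMIs) in WT E18.5 Ttn nuclei.

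Promoters are shown of 4 members whose CPM in 1 class was over 4 times that of each other class in at least 3 libraries. The class was Pecam1 nuclei for Plxnd1, Robo4 and Sema3g and Pdgfra nuclei for Robo2. Each sequence runs from 250 bases before to 50 bases after the annotated start (RefSeq, GRCm38.p6), 5′ to 3′ on the strand of the gene, with capitals marking AGGAAG or its reverse complement CTTCCT, a core that ETS factors of endothelium can bind, and CAGCTG, an E-box that bHLH factors can bind.
Plxnd1, chr6:115994956-115995255, minus strand: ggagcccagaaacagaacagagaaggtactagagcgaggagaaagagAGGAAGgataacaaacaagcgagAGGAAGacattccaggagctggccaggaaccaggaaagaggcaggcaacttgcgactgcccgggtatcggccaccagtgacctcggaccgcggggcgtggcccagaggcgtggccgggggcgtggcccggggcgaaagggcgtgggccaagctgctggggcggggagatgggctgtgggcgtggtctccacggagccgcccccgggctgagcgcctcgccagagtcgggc
Robo4, chr9:37401722-37402021, plus strand: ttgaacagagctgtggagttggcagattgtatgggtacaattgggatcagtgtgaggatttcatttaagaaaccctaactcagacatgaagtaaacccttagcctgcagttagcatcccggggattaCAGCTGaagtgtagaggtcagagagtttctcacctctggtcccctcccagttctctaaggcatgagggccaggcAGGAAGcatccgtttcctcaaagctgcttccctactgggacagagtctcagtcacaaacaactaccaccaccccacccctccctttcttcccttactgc
Sema3g, chr14:31217623-31217922, plus strand: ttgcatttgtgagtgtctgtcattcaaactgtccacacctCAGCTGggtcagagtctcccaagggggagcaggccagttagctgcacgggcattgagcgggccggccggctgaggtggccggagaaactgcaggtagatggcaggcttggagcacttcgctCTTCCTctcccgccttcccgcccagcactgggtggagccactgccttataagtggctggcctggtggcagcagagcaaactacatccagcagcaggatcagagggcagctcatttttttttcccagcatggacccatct
Robo2, chr16:74411776-74412075, minus strand: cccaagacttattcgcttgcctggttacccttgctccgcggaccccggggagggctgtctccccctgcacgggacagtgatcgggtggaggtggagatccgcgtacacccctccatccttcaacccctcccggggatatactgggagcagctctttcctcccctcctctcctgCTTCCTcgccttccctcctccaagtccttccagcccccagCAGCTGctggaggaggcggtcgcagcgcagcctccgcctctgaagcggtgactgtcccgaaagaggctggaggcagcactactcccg
AGGAAG stood 203 and 180 bases before the start of Plxnd1 and 49 bases before that of Robo4, and on the other strand 89 bases before that of Sema3g and 77 bases before that of Robo2. CAGCTG stood 123 bases before the start of Robo4, 210 before that of Sema3g and 37 before that of Robo2. AGGAAG on either strand was in 37.0% of the 73 promoters of the 57 members with a RefSeq promoter and in 35.4% of all 32851 promoters of this length. CAGCTG was in 16.4% and 16.3% of them. The motifs are matches of letters and not sites.

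Mesenchymal nuclei gave guidance genes the largest share of their RNA at every WT stage up to P5, and muscle nuclei lost most of theirs by adulthood. All 67 members together summed to 14630.3, 7949, 8702 and 6268 CPM at E14.5, E18.5 and P5 and in adults in Pdgfra nuclei, and to 5824, 2903, 2008 and 793 CPM in Ttn nuclei. In Pax7 nuclei they summed to 5736, 4570.1 and 5382 CPM at E14.5, E18.5 and P5, and in Pecam1 nuclei to 6659.8, 5716 and 6989.8 CPM. The sums thus moved least in the progenitor and endothelial classes. In KO muscle the sum was 10328 CPM against 7949 CPM in WT E18.5 Pdgfra nuclei, and 3089 against 2903 CPM in Ttn nuclei. It was 5204 against 4570.1 CPM in Pax7 nuclei and 5326 against 5716 CPM in Pecam1 nuclei. The mesenchymal class therefore had the largest difference in the sum. Every member had at least 1 UMI in the 4 classes, 34 members had at least 1000 and 4 had under 30.

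Ligands and receptors did not move alike in mesenchymal nuclei. Receptors summed to 8148, 4059, 3471 and 1286 CPM at E14.5, E18.5 and P5 and in adults, and ligands to 6482, 3891, 5231 and 4982 CPM. Receptors were thus lower at each later stage, while the ligand sum was at a like level at P5 and in the adult. Slit3 alone made up 52.3% of the adult ligand sum. From P5 to the adult, semaphorins went from 3777 to 1574 CPM, ephrins from 356 to 260 CPM and netrins from 182 to 534 CPM. Netrin receptors summed to 1461, 156, 106 and 31.6 CPM, and Slits, which were highest in the adult, to 1569, 473, 917 and 2614 CPM. In Ttn nuclei both sides were lower at each later stage, with 3957, 2090.2, 1381 and 594 CPM for ligands and 1866, 813, 627 and 198 CPM for receptors.

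A set of 9 members had CPM in 1 class over 4 times that of each other class in at least 3 libraries, and 7 of them belonged to Pecam1 nuclei. The share of all genes that meet this rule was not counted, so these numbers do not set guidance genes apart from other genes. Plxnd1, the receptor through which Sema3e acts on vessels, had 283, 283 and 223 CPM at E14.5, E18.5 and P5 in Pecam1 nuclei and 0.783, 1.97 and 5.21 CPM in Ttn nuclei. Robo4, the Robo of endothelium, had 98.4, 79.2 and 64.4 CPM in Pecam1 nuclei, and Unc5b, a netrin receptor of sprouting vessels, 166, 87.7 and 47.8 CPM. Sema3g, a secreted semaphorin of arteries, had 28.7, 24.4 and 53.3 CPM there, Sema7a, which is anchored in the membrane by a lipid, 24.6, 20.7 and 20.2 CPM, and Efna1 47.2, 46.3 and 22.1 CPM. Of these endothelial members, Robo4, Unc5b, Sema7a and Efna1 had lower values at each later stage, although the intervals of successive stages overlapped except for Unc5b at E18.5 and E14.5. At P5 Unc5b also had 11.7 CPM in Pdgfra nuclei and Efna1 5.65 CPM in Ttn nuclei. Epha2 rested on only 39 UMIs over the 5 Pecam1 libraries. Ntn5, a little studied netrin, was the member of Pax7 nuclei, with 7.29, 5.58 and 14.2 CPM on 51 UMIs over the 5 libraries. Robo2, a Slit receptor, was the member of Pdgfra nuclei, with 1349.6, 950.5, 783 and 59.7 CPM at E14.5, E18.5 and P5 and in adults. Over the members measured in a library, Pdgfra nuclei had the highest CPM for 26 of 54 at E14.5, 21 of 54 at E18.5 and 18 of 51 at P5, and Pecam1 nuclei for 13, 19 and 23 of them. How many of all genes were highest in each class was not counted.

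In Ttn nuclei more members were lower than higher at every step. At P5 and in the adult, more of all genes were lower than higher as well. At E18.5 relative to E14.5, 9 of 48 measured members were higher and 13 lower, beside 15% and 10.5% of all genes. At P5 relative to E18.5, 6 of 48 were higher and 16 lower, beside 7.89% and 23.4% of all genes. In the adult relative to P5, 2 of 43 were higher and 29 lower, beside 9.37% and 28% of all genes. Median log2 ratios of the members were -0.34, -0.52 and -1.92 at these steps, and those of all genes 0.12, -0.40 and -0.26. The step into adulthood was therefore the one at which the members stood furthest from all genes. TMM scaling moved the median of all genes to 0.01 between E18.5 and P5 and to 0.15 between P5 and adult. At the first of these steps 9 members were then higher and 12 lower, beside 13.2% and 13.2% of all genes. At the other, 3 were higher and 23 lower, beside 17.3% and 21.7%.

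Among the semaphorins of Ttn nuclei, the transmembrane Sema6a, a ligand of plexin A2 and A4, had 1257, 871, 49.5 and 3.73 CPM at E14.5, E18.5 and P5 and in adults. It was 17.6-fold lower (16.0 to 19.4) at P5 than at E18.5 and 13.3-fold lower (10.3 to 17.4) in the adult than at P5. Sema3c, a secreted semaphorin that guides neural crest cells, had 1297, 489.6, 578 and 241 CPM, and Sema3e, the ligand of Plxnd1, 216, 93.2, 11.5 and 5.26 CPM. Sema3e was 8.10-fold lower (6.61 to 10.0) at P5 than at E18.5. Sema3d, another secreted semaphorin, had 113, 11.5, 14.9 and 0.986 CPM and was 9.81-fold lower (7.97 to 12.2) at E18.5 than at E14.5 and 15.1-fold lower (9.20 to 26.2) in the adult than at P5. Among the WT stages these 4 genes were thus highest in muscle nuclei at E14.5.

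Other semaphorins of Ttn nuclei peaked later. Sema4d, a ligand of Plxnb1, had 3.02, 26.8, 103 and 43.0 CPM and was 8.87-fold higher (5.94 to 13.7) at E18.5 than at E14.5 and 3.84-fold higher (3.32 to 4.45) at P5 than at E18.5. Sema3a, which repels motor and sensory axons, had 183, 144, 281 and 58.5 CPM, with its highest level at P5. Sema6c had 23.6, 37.8, 50.2 and 85.3 CPM and was higher at each later stage, and Sema7a, on 2, 2, 5 and 18 UMIs, was also highest in the adult. Sema6d, a ligand of plexin A1, stayed between 60.1 and 87.7 CPM in the 4 stages. Among low genes, Sema3f was 5.28-fold higher (2.73 to 11.2) at E18.5 than at E14.5, with 6.49 against 1.23 CPM. Sema4b was 3.31-fold higher (2.00 to 5.68) at the same step and 2.48-fold higher (1.72 to 3.68) in the adult than at P5, at 2.35, 7.77, 3.80 and 9.43 CPM. Sema6b, a transmembrane relative of Sema6a, was 7.02-fold lower (3.15 to 18.4) at P5 than at E18.5, with 0.760 against 5.33 CPM.

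Plexins of Ttn nuclei split between an early and a late group. Plxna2 had 425, 177, 141 and 37.9 CPM at E14.5, E18.5 and P5 and in adults, lower at each later stage. Plxna4 had 31.7, 81.3, 179 and 84.3 CPM and was 2.20-fold higher (2.01 to 2.40) at P5 than at E18.5, and Plxnd1 was 2.64-fold higher (1.49 to 4.91) at that step, with 5.21 against 1.97 CPM. Plxna3 was 6.61-fold lower (4.15 to 11.0) at P5 than at E18.5, with 2.28 against 15.1 CPM. Plxna4 and Plxnd1 were thus higher at P5 than at E18.5, and Plxna2 and Plxna3 lower.

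Ephrins and Eph receptors of Ttn nuclei were largely embryonic. Epha3, a receptor that binds A-type ephrins, had 638, 165, 59.6 and 1.26 CPM at E14.5, E18.5 and P5 and in adults and was 47.3-fold lower (31.2 to 75.3) in the adult than at P5. Efna5, one of its ligands, had 352, 65.3, 42.6 and 11.2 CPM and was 5.40-fold lower (4.93 to 5.92) at E18.5 than at E14.5. Ligand and receptor were both highest at E14.5. Epha6 had 43.1, 1.74, 2.17 and 1.32 CPM and was 24.8-fold lower (14.8 to 44.7) at E18.5 than at E14.5. Epha5, by contrast, had 8.39, 29.9, 21.0 and 0.329 CPM, 3.57-fold higher (2.75 to 4.67) at E18.5 than at E14.5 and 63.8-fold lower (28.8 to 176) in the adult than at P5. Over every nucleus that met the Ttn rule, the log2 ratio of Epha5 at E18.5 was 0.71 against 1.83. Efnb1, a transmembrane ephrin, was 15.5-fold lower (6.62 to 44.4) in the adult than at P5, with 0.329 against 5.11 CPM. Efna1 moved the other way, at 0.112, 1.04, 5.65 and 7.51 CPM, and was 5.41-fold higher (2.64 to 12.5) at P5 than at E18.5. Ephb6, an Eph receptor without kinase activity, was 2.13-fold higher (1.01 to 4.79) at P5 on 25 against 11 UMIs, and its log2 ratio was 0.91 without the nucleus that held most of its UMIs.

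Among Slits, Robos and netrin receptors of Ttn nuclei, Slit2 had 246, 43.5, 16.6 and 3.51 CPM at E14.5, E18.5 and P5 and in adults and was 5.65-fold lower (5.06 to 6.32) at E18.5 than at E14.5. Robo1 had 213, 58.6, 54.0 and 4.11 CPM, and Robo2 50.2, 49.9, 41.7 and 0.822 CPM, 50.7-fold lower (30.4 to 91.5) in the adult than at P5. Robo1 was therefore lower already at E18.5, and Robo2 only in the adult. Unc5d, a receptor for repulsion by netrins, had 126, 6.03, 0.652 and 0.384 CPM and was 20.9-fold lower (15.8 to 28.1) at E18.5 than at E14.5 and 9.25-fold lower (3.98 to 26.4) at P5 than at E18.5. Dcc, the receptor for attraction by netrin, had 79.1, 17.2, 9.56 and 1.42 CPM. Unc5a went the other way, with 3.02, 1.04, 1.63 and 4.66 CPM and 2.86-fold higher (1.64 to 5.33) in the adult than at P5. Among netrins, Ntn4, which is found in basement membranes, had 6.15, 21.2, 15.6 and 10.9 CPM and was 3.45-fold higher (2.54 to 4.75) at E18.5 than at E14.5.

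Markers of mesenchymal cells in Ttn nuclei moved with these losses. The mesenchymal list summed to 43.5 CPM in adult Ttn nuclei and 755 CPM at P5, and that of macrophages to 42.3 and 341 CPM. Pdgfra itself was at 0 by the class rule. In Pdgfra nuclei of P5 the mesenchymal list summed to 11354 CPM and Robo2 had 783 CPM, Epha3 609 CPM, Epha5 107 CPM and Sema6a 249.9 CPM. The share of mesenchymal RNA in these losses was not tested. When Ttn nuclei were required to hold more of their own markers than of any other list, 4185 adult and 1380 P5 nuclei remained and 2 members were again higher and 29 lower. Robo2 then had a log2 ratio of -5.36 against -5.67 over all Ttn nuclei, and Epha3 one of -5.46 against -5.56.

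**Figure D1:**
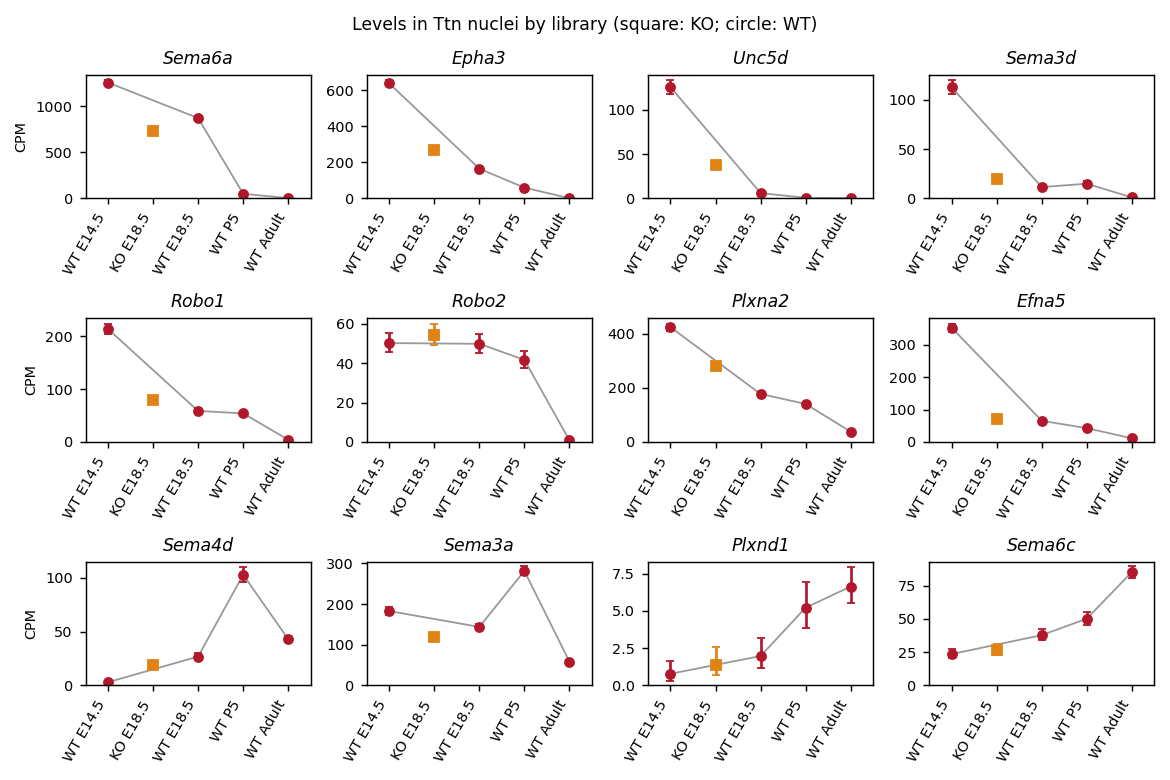
Levels in Ttn nuclei of 12 members by library, in CPM with exact 95% intervals of counting, with WT stages as circles joined by a line and the KO library as a square. Sema6a drops between E18.5 and P5, Robo2 between P5 and adult, Unc5d between E14.5 and E18.5, and Sema4d and Sema3a peak at P5.

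In KO Ttn nuclei, Unc5d, Unc5a, Ephb1 and Sema3e were among the members that were higher. In all, 7 of 46 measured members were higher and 2 lower, beside 5.39% and 6.32% of all genes. The median log2 ratio was 0.17 for the members and -0.06 for all genes. In nuclei under 15000 UMIs the split turned to 4 higher and 5 lower, with a median of 0.032 for the members, and the log2 ratio of Sema5b was 0.49; the median Ttn nucleus held 9409 UMIs in KO and 6521 in WT muscle. Unc5d had 37.8 against 6.03 CPM in KO and WT nuclei, 6.27-fold higher (4.64 to 8.60), and Unc5a 3.92 against 1.04 CPM, 3.75-fold higher (1.72 to 9.04). Ephb1, the receptor by which motor axons bound for the ventral limb respond to B-type ephrins, had 67.7 against 13.1 CPM and was 5.17-fold higher (4.20 to 6.40). All 3 receptors thus had several times more RNA in the KO library. The 270 KO UMIs of Unc5d came from 22 nuclei, of which 1 held 92, and 20 of its 52 WT UMIs came from 1 nucleus. Without the top KO nucleus, the log2 ratio of Unc5d was 2.05 against 2.65. Plxnc1, the plexin that binds Sema7a, was 2.63-fold higher (1.44 to 4.97), with 5.18 against 1.97 CPM. Among ligands, Sema3e was 2.38-fold higher (2.19 to 2.60), with 222 against 93.2 CPM, and Sema5b 2.53-fold higher (1.45 to 4.56), with 5.88 against 2.32 CPM. Ephb6 was past 2-fold with an interval of 0.943 to 4.85, which holds 1.

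The members lower in KO Ttn nuclei were Epha4, the Eph receptor that sends motor axons to the dorsal limb, and Sema3f, which acts through neuropilin-2. Epha4 had 12.3 against 26.1 CPM in KO and WT nuclei and was 2.12-fold lower (1.65 to 2.74), and Sema3f 2.94 against 6.49 CPM, 2.21-fold lower (1.32 to 3.84). Epha4 ended just past the threshold, with a log2 ratio of -0.99 without its top nucleus. Over every nucleus that met the Ttn rule, the log2 ratios of Epha4 and Sema3f were both -0.62. Other members with high levels lay inside the threshold, among which Epha3 had 267 against 165 CPM and was 1.62-fold higher (1.51 to 1.74), and Plxna2 282 against 177 CPM, 1.59-fold higher (1.49 to 1.70). Sema6a, which differed so widely between stages, had 733 against 871 CPM. The mesenchymal list summed to 223 CPM in KO and 676 CPM in WT Ttn nuclei, and the progenitor list to 406 and 265 CPM; their part in these differences was not tested. KO and WT values of E18.5 are set beside those of other stages only as levels, since the WT library is shared by both comparisons.

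In Pdgfra nuclei, netrin receptors and Eph receptors of the embryo were lower by E18.5. At E18.5 relative to E14.5, 2 of 51 measured members were higher and 13 lower, beside 8.46% and 9.63% of all genes. At P5 relative to E18.5, 4 of 49 were higher and 4 lower, beside 4.08% and 7.96% of all genes. In the adult relative to P5, 5 of 41 were higher and 15 lower, beside 8.63% and 20.4%. Median log2 ratios were -0.45, -0.04 and -0.71 for the members and 0.02, -0.14 and -0.21 for all genes. The adult class held 134 nuclei and 284626 UMIs, so 1 UMI there was 3.51 CPM.

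In mesenchymal nuclei Dcc, Unc5c and Unc5d were lower by E18.5, and Ntn4 and Ntn1 were highest in the adult. Dcc had 611, 71.7, 27.1 and 17.6 CPM at E14.5, E18.5 and P5 and in adults and was 8.53-fold lower (7.84 to 9.29) at E18.5 than at E14.5 and 2.65-fold lower (2.18 to 3.23) at P5 than at E18.5. Unc5c, a receptor for repulsion, had 687, 56.3, 54.6 and 3.51 CPM, 12.2-fold lower (11.1 to 13.4) at E18.5 than at E14.5 and 15.5-fold lower (2.77 to 616) in the adult than at P5, and Unc5d was 7.85-fold lower (6.66 to 9.29) at the first step. Ntn4 had 15.8, 16.7, 40.5 and 179 CPM and was 2.43-fold higher (1.95 to 3.03) at P5 than at E18.5 and 4.42-fold higher (3.18 to 6.05) in the adult than at P5. Ntn1, the netrin that attracts axons through Dcc, had 138, 133, 139 and 348 CPM and was 2.51-fold higher (2.01 to 3.11) at the last step. Netrin RNA was thus highest in the adult. Dcc was 1.54-fold lower in the adult than at P5, on 5 adult UMIs, with an interval of 0.644 to 4.83, which holds 1.

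Slit2 and Slit3, both secreted ligands of Robos, differed in opposite directions in adult mesenchymal nuclei. Slit3 had 863, 365, 744 and 2607 CPM and was 2.04-fold higher (1.94 to 2.14) at P5 than at E18.5 and 3.50-fold higher (3.23 to 3.79) in the adult than at P5. Slit2 had 704, 106, 171 and 7.03 CPM and was 24.3-fold lower (6.72 to 201) in the adult than at P5, on 2 adult UMIs. Robo1 had 1898, 1032, 1006 and 594 CPM, and Robo2 was 13.1-fold lower (8.18 to 22.5) in the adult than at P5. Slit2 and Robo2 were therefore lowest, and Slit3 highest, in the adult.

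Among the ephrins and Eph receptors of mesenchymal nuclei, Efna5 had 1323, 371, 273 and 228 CPM at E14.5, E18.5 and P5 and in adults. Epha7 had 1174, 406, 222 and 14.1 CPM and was 15.8-fold lower (6.14 to 58.0) in the adult than at P5, and Epha3 had 1046, 618, 609 and 126 CPM. These A-type genes were highest at E14.5 and lowest in the adult. Ephb1 was 17.8-fold lower (12.2 to 26.8) at E18.5 than at E14.5, with 3.29 against 58.6 CPM, and Epha6 12.1-fold lower (8.71 to 17.4), with 4.39 against 53.3 CPM. Epha5 was 2.14-fold lower (1.94 to 2.36) at P5 than at E18.5 and Efna2 3.22-fold lower (1.70 to 6.75), on 11 against 70 UMIs.

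Among semaphorins of mesenchymal nuclei, Sema3c was highest at P5 and Sema3a at E14.5. Sema3c had 413, 913, 1907 and 604 CPM and was 2.21-fold higher (2.11 to 2.31) at E18.5 than at E14.5 and 2.09-fold higher (2.03 to 2.15) at P5 than at E18.5. Sema3a had 1186, 624, 431 and 38.6 CPM and was 11.2-fold lower (6.22 to 22.4) in the adult than at P5. Sema5a, a transmembrane semaphorin with thrombospondin repeats, stayed between 499 and 829.8 CPM. Sema3b was 2.34-fold higher (1.36 to 4.26) at E18.5 than at E14.5, with 7.25 against 3.09 CPM. Smaller counts gave Sema4a 2.22-fold higher (1.07 to 4.66) and Sema3f 2.03-fold lower (1.35 to 3.13) at P5 than at E18.5. In the adult Plxnd1 was 2.99-fold higher (1.56 to 5.32) than at P5, with 49.2 against 16.5 CPM, and Plxna1 2.24-fold higher (1.15 to 4.02), on 13 adult UMIs. Without the top nucleus of each, the log2 ratios of Sema4a, Sema3f and Plxna1 were 0.98, -0.98 and 0.92. The endothelial list summed to 429 CPM in adult and 253 CPM in P5 Pdgfra nuclei; its part in the Plxnd1 value was not tested.

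Mesenchymal nuclei of KO muscle held more RNA of both Slits. Slit2 had 484 against 106 CPM in KO and WT Pdgfra nuclei and was 4.57-fold higher (4.26 to 4.91), and Slit3 had 1036 against 365 CPM, 2.84-fold higher (2.72 to 2.96). Their receptors Robo1 and Robo2 had 1320.0 against 1032 CPM and 1182 against 950.5 CPM, inside the threshold. Of 52 measured members, 8 were higher and 2 lower, beside 6.23% and 5.06% of all genes, with medians of 0.18 for members and -0.07 for all genes. Sema6d was 3.14-fold higher (2.93 to 3.36), with 394 against 126 CPM. Among receptors, Ephb1 was 3.04-fold higher (1.97 to 4.80) and Epha6 2.73-fold higher (1.86 to 4.06), and Unc5d, Plxnc1 and Unc5c were 2.60-fold, 2.51-fold and 2.50-fold higher. Ntn4 was 2.38-fold lower (1.73 to 3.30), with 7.02 against 16.7 CPM, and Sema3b 2.06-fold lower (1.30 to 3.36), with 3.51 against 7.25 CPM. Over every nucleus with a Pdgfra UMI their log2 ratios were -0.37 and -0.75. Slit2, Slit3, Dcc and Unc5c of KO nuclei, at 484, 1036, 132 and 141 CPM, can be set beside 704, 863, 611 and 687 CPM at E14.5. Other members did not lie toward their E14.5 level. Epha7 had 330 CPM in KO, 406 CPM in WT E18.5 and 1174 CPM in E14.5 nuclei. In the same order Sema3a had 459, 624 and 1186 CPM and Sema6d 394, 126 and 106 CPM. The mesenchymal list summed to 5853 CPM in KO and 8644 CPM in WT Pdgfra nuclei, the adipocyte list to 196 and 31.8 CPM and the tenocyte list to 186 and 311 CPM. A different mix of mesenchymal cells and a change within each cell cannot be told apart from these sums.

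In Pax7 nuclei Robo1, Sema6a, Plxna2 and Sema3a differed less than 2-fold between stages, while Ntn4 was higher and Dcc lower at E18.5. Robo1 had 706, 621 and 790.1 CPM at E14.5, E18.5 and P5, Sema6a 669, 666 and 790.1 CPM, Plxna2 641, 689 and 624 CPM and Sema3a 655, 781 and 478 CPM. At E18.5 relative to E14.5, 1 of 23 measured members was higher and 5 were lower, beside 5.67% and 5.87% of all genes, and the members stood lower than all genes in the median. At P5 relative to E18.5, 3 of 18 were higher and 2 lower, beside 5.34% and 8.31% of all genes. This split turned to 0 of 14 higher and 5 lower in nuclei in which the progenitor list led, and to 3 of 43 higher and 8 lower over every nucleus with a Pax7 UMI. Median log2 ratios were -0.59 and 0.24 for members and -0.04 and -0.12 for all genes.

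In progenitors Ntn4 was higher and Dcc lower at E18.5 than at E14.5, while Ntn1 had 83.7 against 75.4 CPM. Ntn4 had 53.5, 188 and 216 CPM at E14.5, E18.5 and P5 and was 3.52-fold higher (2.49 to 5.07) at E18.5 than at E14.5. Dcc was 13.9-fold lower (6.86 to 33.0), with 11.2 against 156 CPM, and Sema3e 4.28-fold lower (2.21 to 9.07), with 15.4 against 65.6 CPM. With 2 UMIs of Pax7 required, their log2 ratios were -1.34 and -0.15, and that of Sema3e was -0.93 over every nucleus with a Pax7 UMI. All 8 Dcc UMIs of E18.5 came from 1 nucleus. Efna5 had 538, 194 and 301 CPM and was 2.78-fold lower (2.29 to 3.38), Epha3 417, 158 and 386 CPM and 2.64-fold lower (2.13 to 3.30), and Slit2 614, 254 and 128 CPM and 2.42-fold lower (2.04 to 2.88). An ephrin, its receptor and a Slit were thus lower together at this step. At P5 Sema3c was 6.57-fold higher (4.38 to 10.1) than at E18.5, with 312 against 47.4 CPM, Slit3 4.32-fold higher (2.41 to 7.91), with 120.5 against 27.9 CPM, and Epha3 2.45-fold higher (1.87 to 3.21). Unc5c was 3.68-fold lower (1.14 to 18.9), on 3 against 28 UMIs. The mesenchymal list summed to 2331 CPM in P5 and 828 CPM in E18.5 Pax7 nuclei. Over the 52 P5 and 115 E18.5 nuclei in which the progenitor list led, the log2 ratio of Sema3c was -0.89, against 2.72 over all of them. Over every nucleus with a Pax7 UMI, the log2 ratios of Sema3c, Epha3 and Unc5c were 0.92, -0.12 and 0.74.

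In KO Pax7 nuclei, 11 of 33 measured members were higher and 0 lower, beside 7.8% and 3.44% of all genes, and the medians were 0.58 for members and -0.05 for all genes. This count did not hold under other ways of choosing the nuclei: 4 members in all were past 2-fold when 2 UMIs of Pax7 were required or nuclei under 15000 UMIs were taken, and 4 were higher and 2 lower in the 229 KO and 115 WT nuclei in which the progenitor list led. Efna5 had 441 against 194 CPM in KO and WT nuclei and was 2.27-fold higher (1.90 to 2.74), and Slit3 had 73.4 against 27.9 CPM, 2.63-fold higher (1.65 to 4.42). Sema6d was 4.44-fold higher (1.95 to 12.5), with 37.2 against 8.37 CPM, and Sema3e 3.39-fold higher (1.82 to 6.98), with 52.0 against 15.4 CPM. Ntn5 was 3.00-fold higher (1.07 to 11.6), on 36 against 4 UMIs. Plxna4 had 50 against 1 UMI, so its ratio had an interval of 2.85 to 670.3. Sema3e had a log2 ratio of -1.18 in nuclei under 15000 UMIs, and Plxna4 one of -0.094 over every nucleus with a Pax7 UMI. Sema6d had 0.32 over every such nucleus, 0.89 with 2 UMIs of Pax7 and 0.74 where the progenitor list led, and Slit3 0.29 with 2 UMIs of Pax7 and 0.67 where that list led. The adipocyte list summed to 255 CPM in KO and 12.6 CPM in WT Pax7 nuclei, the muscle list to 1455 and 774 CPM and the neuron list to 102 and 2.79 CPM; their part was not tested.

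**Figure D2:**
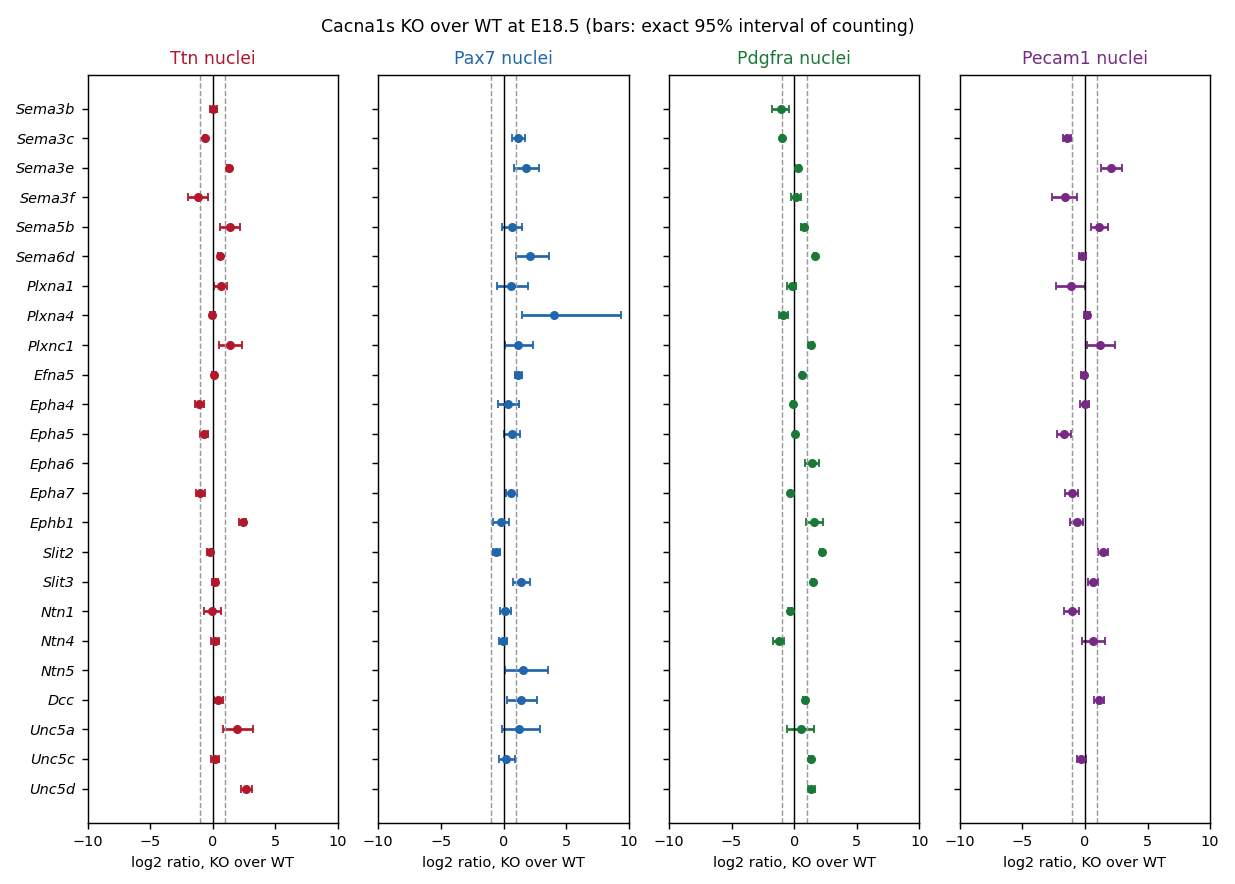
Log2 ratio of KO over WT at E18.5 for 24 members in the 4 nuclear classes, with exact 95% intervals of counting and dashed lines at 2-fold. Unc5d and Ephb1 lie right of the line in Ttn nuclei, Slit2, Slit3 and Sema6d in Pdgfra nuclei, and Sema3c lies right of it in Pax7 nuclei and left of it in Pecam1 nuclei.

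In Pecam1 nuclei, Sema3c and Sema3d were higher and Robo1 and Sema6d lower at E18.5 than at E14.5. Ratios in this class depended on the choice of nuclei: of 28 named ratios of this class, 24 were inside 2-fold or of the other sign under at least 1 alternative. At E18.5 relative to E14.5, 6 of 33 measured members were higher and 4 lower, beside 8.85% and 5.45% of all genes. At P5 relative to E18.5, 8 of 36 were higher and 4 lower, beside 4.41% and 6.49% of all genes. The medians were 0.03 and 0.10 for members and -0.01 and -0.07 for all genes. Sema6a had 711, 725 and 800.1 CPM at E14.5, E18.5 and P5, Plxna2 254, 328 and 316 CPM and Efna5 593, 404 and 445 CPM, each within 2-fold.

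Sema3c had 53.3, 316 and 706 CPM at E14.5, E18.5 and P5 and was 5.92-fold higher (3.95 to 9.23) at E18.5 than at E14.5. Sema3d, with 405 CPM at P5, was 3.31-fold higher (1.86 to 6.33) at E18.5 than at E14.5 and 4.26-fold higher (3.28 to 5.59) at P5 than at E18.5. Sema3f had 10.3, 42.6 and 16.6 CPM, 4.16-fold higher (1.62 to 13.6) at the first step and 2.58-fold lower (1.21 to 6.09) at the next. Of these 3, Sema3f alone was lower again at P5. Sema3e was 3.11-fold higher (1.67 to 6.06) at P5 than at E18.5, from 6 nuclei. Ntn1 had 24.6, 76.7 and 221 CPM, 3.12-fold higher (1.67 to 6.35) and 2.88-fold higher (2.10 to 3.97) at the successive steps, Ntn4 was 2.93-fold higher (1.59 to 5.61) at P5 than at E18.5, and Slit3 3.13-fold higher (2.38 to 4.15). Plxna4 had 92.3, 264 and 469 CPM and was 2.87-fold higher (2.07 to 4.04) at the first step. The mesenchymal list summed to 506, 2943 and 4190.2 CPM in the same nuclei, and over the 92 E18.5 and 91 E14.5 nuclei in which the endothelial list led, the log2 ratio of Sema3c was -0.84. Over such nuclei of P5 and E18.5 (64 and 92) that of Sema3e was -2.05 and that of Slit3 0.63. The part of mesenchymal RNA in the values of the secreted ligands was not tested beyond this.

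Receptors and axon guidance ligands that were lower in Pecam1 nuclei included Robo1, with 908, 274 and 318 CPM and 3.31-fold lower (2.82 to 3.91) at E18.5 than at E14.5, and Sema6d, with 693, 306 and 217 CPM and 2.27-fold lower (1.92 to 2.68). Epha3 was 2.50-fold lower (1.79 to 3.50) and Slit2 2.31-fold lower (1.68 to 3.19) at that step, and their log2 ratios were -0.91 and -0.93 without the top nucleus of each. At P5 Robo2 was 2.34-fold lower (1.66 to 3.37), Efna1 2.10-fold lower (1.07 to 4.41) and Unc5c 2.06-fold lower (1.40 to 3.09) than at E18.5. Efna1 and Unc5c had log2 ratios of -0.95 and -0.56 without the top nucleus, as did Ntn4 with 0.90 and Sema3e with 0.92. Several endothelial ratios at P5 were therefore carried by few nuclei.

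Efnb2 and Ephb4, the ephrin of arteries and the Eph receptor of veins, were read as shares of nuclei with a UMI. Efnb2 was found in 63.7% of Pecam1 nuclei at E14.5, 40.6% at E18.5 and 39% at P5, and Ephb4 in 39.8%, 50% and 41%. Median depth was 3892, 5682.5 and 5210 UMIs in the same order. Thinned to 1000 UMIs per nucleus, Efnb2 was in 31.2% (22.7 to 40.8), 20.5% (13.8 to 28.5) and 9.18% (4.29 to 16.7). Ephb4 was then in 19.3% (12.3 to 27.9), 18.1% (11.8 to 25.9) and 9.18% (4.29 to 16.7), so it was not higher at E18.5 at equal depth. In KO Pecam1 nuclei the shares were 58.7% (48.9 to 68.1) for Efnb2 and 57.8% (48.0 to 67.2) for Ephb4, against 40.6% (32.0 to 49.7) and 50% (41.0 to 59.0) in WT E18.5. Thinned to 1000 UMIs per nucleus, which left out 1 shallower nucleus in each library, Efnb2 was in 24.1% (16.4 to 33.3) of KO and 20.5% (13.8 to 28.5) of WT nuclei and Ephb4 in 23.1% (15.6 to 32.2) of KO and 18.1% (11.8 to 25.9) of WT nuclei. The intervals overlapped for both genes, and the median nucleus held 7753 UMIs in KO and 5682.5 in WT Pecam1 nuclei. At the same thinned depth the shares of both genes in Ttn nuclei were at most 1.28% in KO and 1.34% in WT E18.5 muscle. These Ttn nuclei had medians of 9409 and 6521 UMIs. Without thinning, Efnb2 was in 69.8% of KO Pecam1 nuclei with an Ephb4 UMI and 43.5% of those without one, and in 40.6% of either set in WT E18.5 muscle. These shares were 53.7% and 28.8% at P5 and 66.7% and 61.8% at E14.5, so a higher share with Ephb4 was not particular to KO. The sets were not brought to equal depth.

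In KO Pecam1 nuclei, 5 of 40 measured members were higher and 6 lower, beside 5.94% and 6.03% of all genes, with medians of -0.12 for members and -0.02 for all genes. Sema3e, the ligand of Plxnd1, had 82.9 against 19.5 CPM in KO and WT nuclei and was 4.25-fold higher (2.47 to 7.79), and Plxnd1 itself had 176 against 283 CPM, 1.61-fold lower (1.31 to 1.97). Slit2 was 2.74-fold higher (2.09 to 3.63), Plxnc1 2.32-fold higher (1.10 to 5.36) and Sema5b 2.23-fold higher (1.41 to 3.65). Dcc was 2.23-fold higher (1.70 to 2.96), but its 199 KO UMIs came from 4 nuclei, of which 1 held 116. Lower in KO were Sema3c, with 117 against 316 CPM and 2.69-fold lower (2.15 to 3.38), Sema3f, 3.01-fold lower (1.58 to 6.06), and Epha5, 3.14-fold lower (2.17 to 4.62). Plxna1 was 2.19-fold lower (1.00 to 5.06), on 11 against 20 UMIs, Epha7 2.09-fold lower (1.43 to 3.09), and Ntn1 2.05-fold lower. The KO and WT mesenchymal sums of 909.9 and 2943 CPM, and the adipocyte sums of 703 and 97.5 CPM, differed in these nuclei as well. Over the 75 KO and 92 WT nuclei in which the endothelial list led, 3 members were higher and 4 lower, with log2 ratios of 2.48 for Sema3e, 0.54 for Slit2, 0.99 for Plxnc1, -0.82 for Sema3c, -0.89 for Plxna1 and 0.24 for Epha7. Without the top nucleus of each, those of Plxnc1, Sema5b, Plxna1 and Dcc were 0.87, 0.96, -0.90 and -0.10.

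Sema3e and Plxnc1 had more RNA in the KO library in several classes. Sema3e was 2.38-fold higher in Ttn, 3.39-fold in Pax7 and 4.25-fold in Pecam1 nuclei, and had 54.5 against 45.0 CPM in Pdgfra nuclei. Plxnc1 was 2.63-fold, 2.22-fold, 2.51-fold and 2.32-fold higher in Ttn, Pax7, Pdgfra and Pecam1 nuclei. Not all of these held under other choices of nuclei. The log2 ratio of Sema3e in Pax7 nuclei was -1.18 under 15000 UMIs. That of Plxnc1 in Pecam1 nuclei was 0.49 with 2 UMIs of Pecam1 and 0.99 where the endothelial list led. All classes of a library share its preparation, so these values are not independent of each other.

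Within Ttn nuclei, those with at least 3 UMIs of Col22a1, a collagen of the myotendinous junction, differed in guidance genes at each WT stage. At E14.5, 597 nuclei had Col22a1 and 883 had none, and 10 of 39 measured members were higher and 13 lower with Col22a1, beside 9.89% and 9.9% of all genes. At E18.5 (114 and 1000 nuclei) 4 of 41 were higher and 13 lower, beside 8.41% and 9.73%. At P5 (66 and 1325 nuclei) 13 of 36 were higher and 4 lower, beside 11.6% and 12.8%. In the adult (85 and 4039 nuclei) 7 of 29 were higher and 2 lower, beside 10.2% and 10.3%. KO muscle had 34 such nuclei, too few to compare.

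Epha4, the Eph receptor of dorsal motor axons, had 105 against 11.3 CPM with and without Col22a1 at E14.5, 121 against 12.2 CPM at E18.5, 90.1 against 11.7 CPM at P5 and 74.7 against 0.571 CPM in the adult. Slit2 had 384 against 145 CPM, 164 against 27.3 CPM, 62.4 against 13.4 CPM and 29.9 against 2.74 CPM in the same order. Both genes were higher with Col22a1 at all 4 stages, and in the adult Epha4 had 35 UMIs in these nuclei and 10 in the far more numerous nuclei without Col22a1. Sema3e reversed with age, at 79.0 against 355 CPM at E14.5 and 42.9 against 103 CPM at E18.5 but 119.6 against 3.89 CPM at P5 and 175 against 0.457 CPM in the adult. Nuclei with Col22a1 thus had a lower Sema3e level before birth and a higher one afterwards, on 69 against 33 UMIs at P5 and 82 against 8 in the adult. Nuclei with 1 or 2 UMIs of Col22a1 were in neither set. At E14.5 nuclei with Col22a1 also had more Unc5d, 269.9 against 3.02 CPM, and more Sema3c, 2168 against 479 CPM, Plxna4, 66.3 against 4.52 CPM, and Epha6, 95.3 against 6.28 CPM. Epha3 was lower in them, at 247 against 993 CPM at E14.5 and 56.9 against 185 CPM at E18.5. At P5 Epha5 had 119.6 against 14.3 CPM, Robo1 144 against 41.1 CPM, Robo2 140.4 against 34.6 CPM and Sema6a 172 against 38.2 CPM, and in the adult Sema3a had 137 against 56.4 CPM and Ntn4 34.1 against 10.3 CPM.

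Marker lists of other cells were read in the same nuclei. The mesenchymal list summed to 472 against 216 CPM with and without Col22a1 at E14.5, 552 against 678 CPM at E18.5, 1154 against 717 CPM at P5 and 34.2 against 43.7 CPM in the adult. At P5, where Robo1 and Robo2 were higher with Col22a1, the tenocyte list also summed to 225 against 59.4 CPM and the chondro-osteogenic list to 163 against 17.5 CPM. At E14.5 the neuron list summed to 232 against 15.8 CPM, led by Syt1 at 113 against 4.27 CPM. In the adult neither the mesenchymal nor the tenocyte list was higher with Col22a1. The part of marker lists in the values was not tested at any stage.

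**Figure D3:**
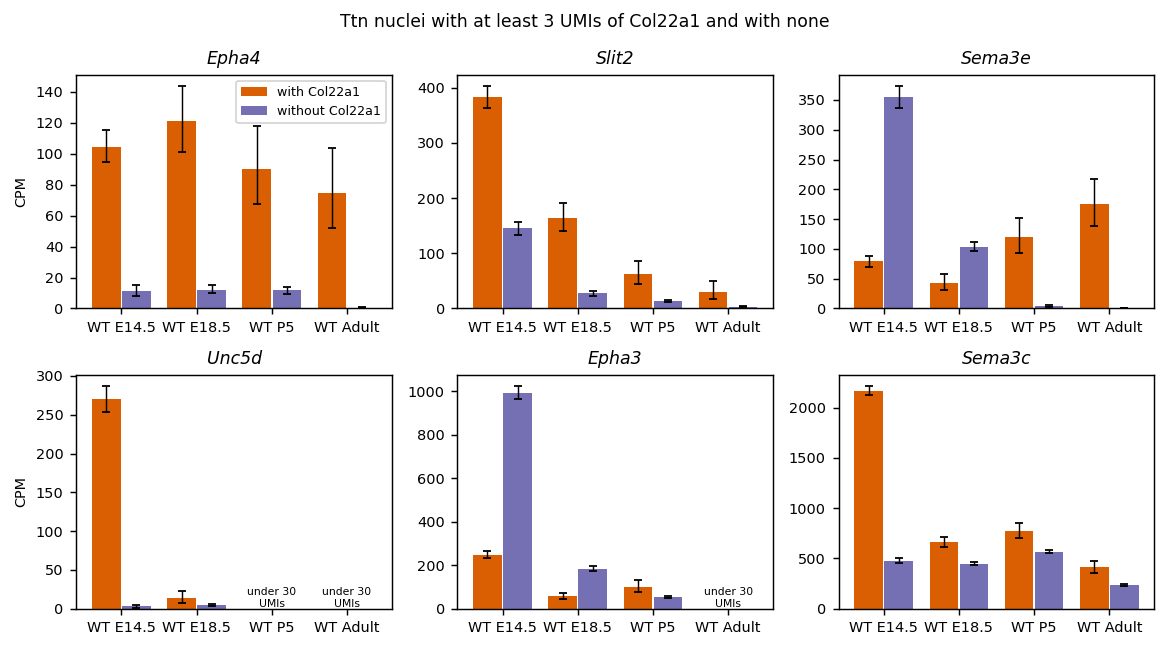
Levels of 6 members in Ttn nuclei with at least 3 UMIs of Col22a1 and with none, by WT stage, in CPM with exact 95% intervals of counting. Epha4 and Slit2 bars are taller with Col22a1 at all 4 stages, and Sema3e bars are taller without it at E14.5 and E18.5 and with it at P5 and in the adult.

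Nuclei with at least 3 UMIs of Myh7, the myosin of slow fibers, were the other subset of Ttn nuclei. At E18.5 (78 with and 1084 without) 6 of 41 measured members were higher and 11 lower, beside 6.1% and 17.2% of all genes, and at P5 (67 and 1336) 9 of 36 were higher and 11 lower, beside 7.35% and 14.2%. At E18.5 Sema6a had 119.8 against 942 CPM with and without Myh7, Sema3e 10.7 against 98.2 CPM and Sema5a 5.37 against 70.9 CPM. Dcc, 4.33-fold higher (2.87 to 6.38) on 35 UMIs with and 112 without Myh7, Plxna4, at 189.6 against 75.1 CPM, and Sema4d, at 57.2 against 24.4 CPM, were higher with Myh7. Semaphorins were thus on both sides. At P5 Epha3 had 209 against 46.2 CPM, Dcc 20.5 against 4.32 CPM and Epha4 a 3.61-fold higher level (2.31 to 5.48) on 28 against 124 UMIs, and Sema3a had 61.6 against 298 CPM and Sema4d 44.8 against 106 CPM. Sema4d was therefore on opposite sides at E18.5 and P5. In the adult, 336 nuclei with at least 3 UMIs of neuromuscular markers were set beside 3104 without any, and 3 of 26 measured members were higher and 7 lower, beside 2.14% and 4.37% of all genes. With 5 UMIs required, 4 were higher and 4 lower. Sema3a had 109.8 against 47.4 CPM with and without these markers, and Ntn1 7.56 against 3.39 CPM. Plxnd1 was 4.32-fold higher (2.85 to 6.56) with them, on 50 against 48 UMIs. Lower with them were Slit3, at 8.28 against 24.5 CPM, Efna5, Robo1, Epha4, Sema5a, Sema6a and Sema3e, the last with 0 against 95 UMIs.

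Open chromatin was read at the promoters of the same genes. A deposited peak lay within 1 kb of an annotated start for 61 of the 67 members in KO muscle and for 64, 66, 58 and 54 in WT muscle at E14.5, E18.5 and P5 and in adults, and for 51 members in all 5 libraries. Peaks were called within each library, so counts are compared between classes of the same library only, as ATAC counts per 10000 of the class. Plxnd1 had 1.04 in Pecam1 against 0.04 in Ttn nuclei of KO muscle, and 1.12 against 0.03, 1.05 against 0.05 and 1.17 against 0.07 in WT muscle at E14.5, E18.5 and P5. The promoter shown above thus had over 10 times as many counts in endothelial as in muscle nuclei of each of these libraries. In the adult library its value was 0.52 in Ttn and 0.87 in Pdgfra nuclei, where Plxnd1 RNA was 6.63 and 49.2 CPM. Robo2 had 0.34, 0.28, 0.30 and 0.05 in Pdgfra nuclei at E14.5, E18.5 and P5 and in adults, against 0.10, 0.05, 0.04 and 0.01 in Ttn nuclei. Sema6c had 1.36 in Ttn and 0.60 in Pdgfra nuclei of the adult. Slit3 had 0.34 in adult Pdgfra nuclei and 0.03 in adult Ttn nuclei.

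Outside the adult, RNA and promoter counts named the same leading class for about as many members as not. The share of all genes with the same leading class was not counted, so these numbers give no measure of agreement. The class with the highest CPM also had the highest promoter value for 26 of 51 members at E14.5, 27 of 53 at E18.5 and 24 of 46 at P5, and for 27 of 55 in KO muscle, among 4 classes, and for 25 of 30 in the adult, where only Ttn and Pdgfra nuclei were read. Unc5a had promoter values of 1.22 in Pax7 and 0.27 in Ttn nuclei of E18.5, and RNA of 6.98 and 1.04 CPM. Robo4 had no peak over its start in any library, although its RNA was read in Pecam1 nuclei.

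**Figure D4:**
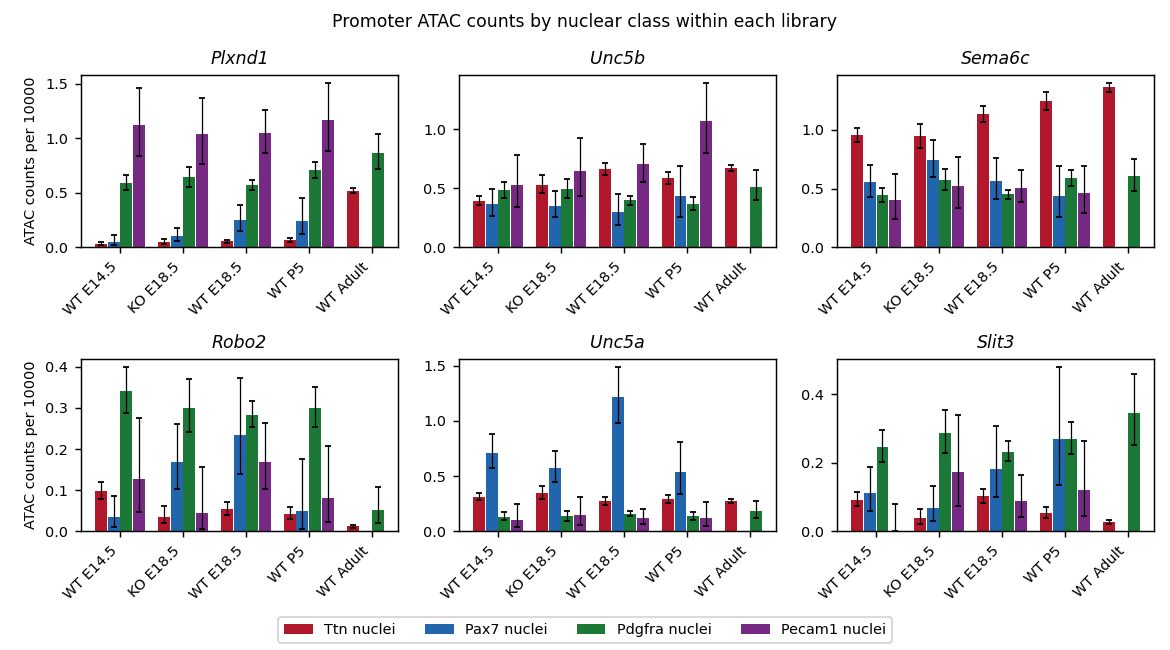
ATAC counts in promoter peaks of 6 members per 10000 ATAC counts of the class, by library and nuclear class, with exact 95% intervals of counting; adult Pax7 and Pecam1 nuclei are left out. Plxnd1 is near 0 in Ttn nuclei of the fetal and P5 libraries, Sema6c is highest in Ttn nuclei and Unc5a in Pax7 nuclei.

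Of 70 other genes of the pathway (co-receptors, other ligands and intracellular partners), 58 were measured between P5 and adult in Ttn nuclei, of which 4 were higher and 30 lower, with a median of -1.04, beside 9.37% and 28% of all genes. In KO Ttn nuclei 6 of 64 were higher and 4 lower, beside 5.39% and 6.32%. In KO Pdgfra nuclei 4 of 65 were higher and 5 lower, beside 6.23% and 5.06%, in KO Pax7 nuclei 7 of 51 and 2, beside 7.8% and 3.44%, and in KO Pecam1 nuclei 4 of 51 and 2, beside 5.94% and 6.03%. Dscaml1, a cell adhesion molecule, had 0.58 CPM at E18.5 and 160.0 CPM at E14.5 in Ttn nuclei, 3.64 CPM in KO Ttn nuclei, and 16.8 CPM in KO against 1.10 CPM in WT Pdgfra nuclei. Dpysl3, which carries semaphorin signals to the cytoskeleton, was lower in all 4 classes of KO muscle, at 3.64 against 28.9 CPM in Ttn, 21.8 against 75.4 CPM in Pax7, 249 against 664 CPM in Pdgfra and 112 against 442 CPM in Pecam1 nuclei. Nrp1, the co-receptor of Sema3a, had 101 CPM at P5 against 34.9 CPM at E18.5 in Ttn nuclei and 215 CPM in the adult, where 29 of 43 measured members were lower.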

How the data were processed

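RNA and open chromatin were measured in the same nuclei of 5 hindlimb muscle libraries, 1 each for KO at E18.5 and for WT at E14.5, E18.5 and P5 and in adults. The deposited values are raw counts, UMIs for genes and ATAC counts for peaks, without normalization. Per the labels and methods, the authors ran Cell Ranger ARC 2.0.0 against mm10, counted intronic reads, and called peaks in each library separately. The limits on nuclei were those of the study's methods: more than 400 and fewer than 25000 UMIs, a mitochondrial share below 10% and fewer than 70000 ATAC counts. No doublet caller was run: nuclei that met more than 1 of the 4 class rules were left out (5.37% to 28.4% of those meeting the Ttn rule, 24% to 87.0% for Pax7, 9.82% to 18.8% for Pdgfra and 37.6% to 81.8% for Pecam1), and nuclei under 15000 UMIs were taken as an alternative. UMIs were summed per class and library and given as CPM with exact Poisson 95% intervals. Ratios have exact conditional (Clopper-Pearson) 95% intervals and shares exact binomial ones, all of counting error only. A gene at 0 was set to a floor of 3 counts in its library. Comparisons needed 50 nuclei on each side, which left 14. The code was tested on simulated data with known changes.

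Members named in the text are the 10 with the highest mean CPM of each class, up to 5 higher and up to 5 lower in each comparison among those at least 2-fold apart whose interval does not hold 1, those over 4 times each other class in at least 3 libraries with at least 30 UMIs, and those past 2-fold in opposite directions in different classes. Others were named after their values were seen, as were the Col22a1, Myh7 and neuromuscular examples. The members and lists were chosen with earlier results of these data known. Promoter counts are those of peaks within 1 kb of an annotated start. Alternatives were 2 UMIs of the class marker, 2% Ttn, every nucleus that meets a rule, nuclei under 15000 UMIs, no limits on nuclei, equal weight of nuclei, minima of 10 and 100 UMIs per gene, subset minima of 2 and 5 UMIs, and TMM factors (edgeR 4.0.16, R 4.3.3). Restricting a class to nuclei in which its own marker list led, and other minima for the neuromuscular subset, were added after seeing the data. Analyses used Python 3.11.15, numpy 2.4.6, scipy 1.17.1 and pandas 2.3.3. Whether counting used the strand is not given in the sources used here, so reads of a member and of a gene antisense to it may be mixed.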

Additional observations from a re-analysis of the deposited data

Results flagged for a closer look

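Some members were at least 2-fold higher in a nuclear class and at least 2-fold lower in another in the same comparison, and the difference between classes was not tested. At E18.5 relative to E14.5, Sema3c had log2 ratios of 1.14 in Pdgfra, 2.57 in Pecam1 and -1.41 in Ttn nuclei, Sema3d 1.73 in Pecam1 and -3.29 in Ttn nuclei, and Sema4d 3.15 in Ttn and -1.28 in Pdgfra nuclei. At P5 relative to E18.5, Efna1 had 2.44 in Ttn and -1.07 in Pecam1 nuclei, Epha3 1.29 in Pax7 and -1.47 in Ttn nuclei, and Sema3e 1.64 in Pecam1 and -3.02 in Ttn nuclei. In the adult relative to P5, Ntn1 had 1.33 in Pdgfra and -1.26 in Ttn nuclei, and Slit3 1.81 in Pdgfra and -1.37 in Ttn nuclei. In KO relative to WT E18.5, Sema3c had 1.17 in Pax7 and -1.43 in Pecam1 nuclei. Several of these opposite directions did not hold under other choices of nuclei. Where own markers led, Pecam1 nuclei gave Sema3c -0.84 at E18.5 and -0.82 in KO, and Sema3e -2.05 and Efna1 -0.95 at P5. Over every nucleus that met the rule, Sema3d had 0.75 in Pecam1 nuclei at E18.5 and Epha3 -0.12 in Pax7 nuclei at P5. The mesenchymal list moved the same way as Sema3c in Pecam1 nuclei, with 2943 CPM at E18.5 and 506 CPM at E14.5, and 910 CPM in KO against 2943 CPM in WT E18.5; its part was not tested.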

How the results depend on the processing

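Of 154 alternative values of the counts of members past 2-fold, 134 were within 1.5 times the count given, and of 857 alternative values of the named ratios 846 kept their sign, of which 717 lay within the interval of the ratio. Of the 109 named ratios, 51 were inside 2-fold or of the other sign under at least 1 alternative: 7 of 34 in Ttn, 8 of 15 in Pax7, 12 of 32 in Pdgfra and 24 of 28 in Pecam1 nuclei. With a minimum of 100 UMIs the counts, both directions together, became 14 in Ttn nuclei at P5 relative to E18.5, 4 in KO Ttn and 4 in KO Pax7 nuclei, 2 in Pax7 nuclei at P5, 6 in Pecam1 nuclei at E18.5, 7 at P5 and 6 in KO. With a minimum of 10 UMIs they became 15 in KO Ttn nuclei, 17 in Pax7 nuclei at E18.5 and 9 at P5. Over every nucleus that meets the rule they were 13 in Pax7 nuclei at E18.5, 11 at P5 and 17 in Pecam1 nuclei at E18.5. With 2% Ttn the Pax7 count at E18.5 was 10. The KO Pax7 count of 11 was 4 with 2 marker UMIs, 4 under 15000 UMIs and 6 where own markers led, and the KO Pecam1 count of 11 was 7 where own markers led. In Ttn nuclei of E14.5 split by Myh7, 5 members were past 2-fold at 3 UMIs, 3 at 2 UMIs and 10 at 5 UMIs. TMM factors moved the split to 9 higher and 12 lower in Ttn nuclei at P5 relative to E18.5, and to 3 of each in Pax7 nuclei. The larger side of the split also turned in KO Ttn nuclei under 15000 UMIs (4 higher and 5 lower), in Pax7 nuclei at P5 over every nucleus (3 and 8) and where own markers led (0 and 5), in Pecam1 nuclei at E18.5 over every nucleus (8 and 9) and with a minimum of 100 UMIs (2 and 4), and in KO Pecam1 nuclei over every nucleus and with no limits on nuclei (5 and 4 in both). Log2 ratios that changed sign were, in Pax7 nuclei at P5, Sema3c at -0.89 where own markers led, and Epha3 at -0.12 and Unc5c at 0.74 over every nucleus. In KO Pax7 nuclei they were Plxna4 at -0.094 over every nucleus and Sema3e at -1.18 under 15000 UMIs. In Pecam1 nuclei at E18.5 they were Sema3c at -0.84 where own markers led, and Epha3 at 0.24 with 2 marker UMIs and 0.068 where own markers led. At P5 it was Sema3e at -2.05 where own markers led. In KO Pecam1 nuclei they were Dcc at -4.53 under 15000 UMIs and Epha7 at 0.24 where own markers led. The cause was not tested. Not run for want of 50 nuclei were 2 marker UMIs for Pax7 nuclei at P5 (45 nuclei) and adult Pdgfra nuclei (44 nuclei). No paired analysis was possible because each group was 1 library. Depth limited the Pax7 and Pecam1 classes, where 1 UMI was 0.46 to 3.54 CPM outside the adult.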
